A study of Mus musculus with 6 samples.

Results

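The 7 genes *Hdc*, *Acod1* (formerly *Irg1*), *Il13ra2*, *Lrp2*, *Napsa*, *Cobl* and *Cnn3*, grouped as candidate genes of luminal epithelial receptivity, were examined in the whole uterus of mice with and without epithelial SOX17. They were chosen as a list of names, with their values in the same comparison of genotypes known, so that their differences are given as a description and without a test. The study itself lists *Hdc*, *Acod1*, *Cobl* and *Cnn3* as genes of the luminal epithelium and *Lrp2* as a gene of the uterine epithelium, whereas *Il13ra2* and *Napsa* are in neither list. The list makes up 7 of 20145 genes that could be matched to probes of the array. All 7 were among the 14847 genes tested, those with a probe that the scanner software called well above background on 3 or more of the 6 arrays. Because a whole uterus was measured, these arrays do not say which cells made a transcript, and fewer cells of a type and less RNA per cell cannot be told apart.

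The array data came from pregnant mice on gestation day (GD) 3.5, mated at 8 to 10 weeks of age, whose uteri were emptied of embryos and frozen. The control group was 3 Sox17f/f mice, which carry 2 floxed alleles of *Sox17*, the gene of an SRY-related HMG box transcription factor, and no recombinase. The other group was 3 Sox17ed/ed mice, which carry the same floxed alleles together with an iCre recombinase driven by the *Ltf* gene, active in the uterine epithelium from puberty, so that SOX17 of the endothelium remains. Each mouse was measured on 1 single-colour Agilent array, whose values are given as the log2 of the background-subtracted signal, quantile normalized between arrays. All 6 arrays lay on 1 slide, the Sox17f/f arrays in row 1 and the Sox17ed/ed arrays in row 2, and slide row and genotype cannot be told apart. Between 56.8% and 65.7% of the spots other than controls were well above background, and 0 spots were saturated. The number of arrays limits the precision.

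The luminal epithelium lines the uterine cavity and is the first maternal tissue that a blastocyst meets. Under progesterone it becomes receptive for a short time, during which it stops dividing, takes up and secretes a different set of proteins, and rebuilds its apical surface. The 7 genes encode proteins of different kinds, and their part in such a state was not measured here. *Hdc* encodes histidine decarboxylase, the enzyme that makes histamine. *Acod1* encodes the enzyme that makes itaconate from cis-aconitate. *Il13ra2* encodes a decoy receptor for IL13, and *Lrp2* encodes megalin, a large endocytic receptor. *Napsa* encodes the aspartic protease napsin A, *Cobl* the actin nucleator cordon-bleu, and *Cnn3* the actin-binding protein calponin 3.

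*Sox17* itself was lower on each Sox17ed/ed array. Its log2 signal was 12.21, 12.07 and 12.22 on the Sox17f/f arrays and 9.75, 9.59 and 9.81 on the Sox17ed/ed arrays, a log2 difference of -2.45 ± 0.09 (SE, limma, adjusted p = 2.66e-05). A further *Sox17* probe gave a difference of -2.97. Whether either probe lies in the floxed part of the gene is not given in the sources used here.

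The 7 genes did not move together. On the log2 scale 5 were lower in Sox17ed/ed uteri (*Acod1*, *Hdc*, *Cobl*, *Lrp2* and *Cnn3*) and 2 were higher (*Il13ra2* and *Napsa*), with a median difference of -1.68. By the thresholds of the study's methods, an unadjusted p under 0.01 and a fold change of at least 1.4, 5 genes counted as lower and 1, *Il13ra2*, as higher, and *Napsa* did not pass. Of all genes tested, 12.5% passed these thresholds, 6.47% as lower and 6.04% as higher. Since the genes were chosen on this contrast, nothing is read from their count. The 3 Sox17f/f and the 3 Sox17ed/ed arrays did not overlap for any of the 7 genes, as for 40.6% of all genes tested.

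**Figure D1:**
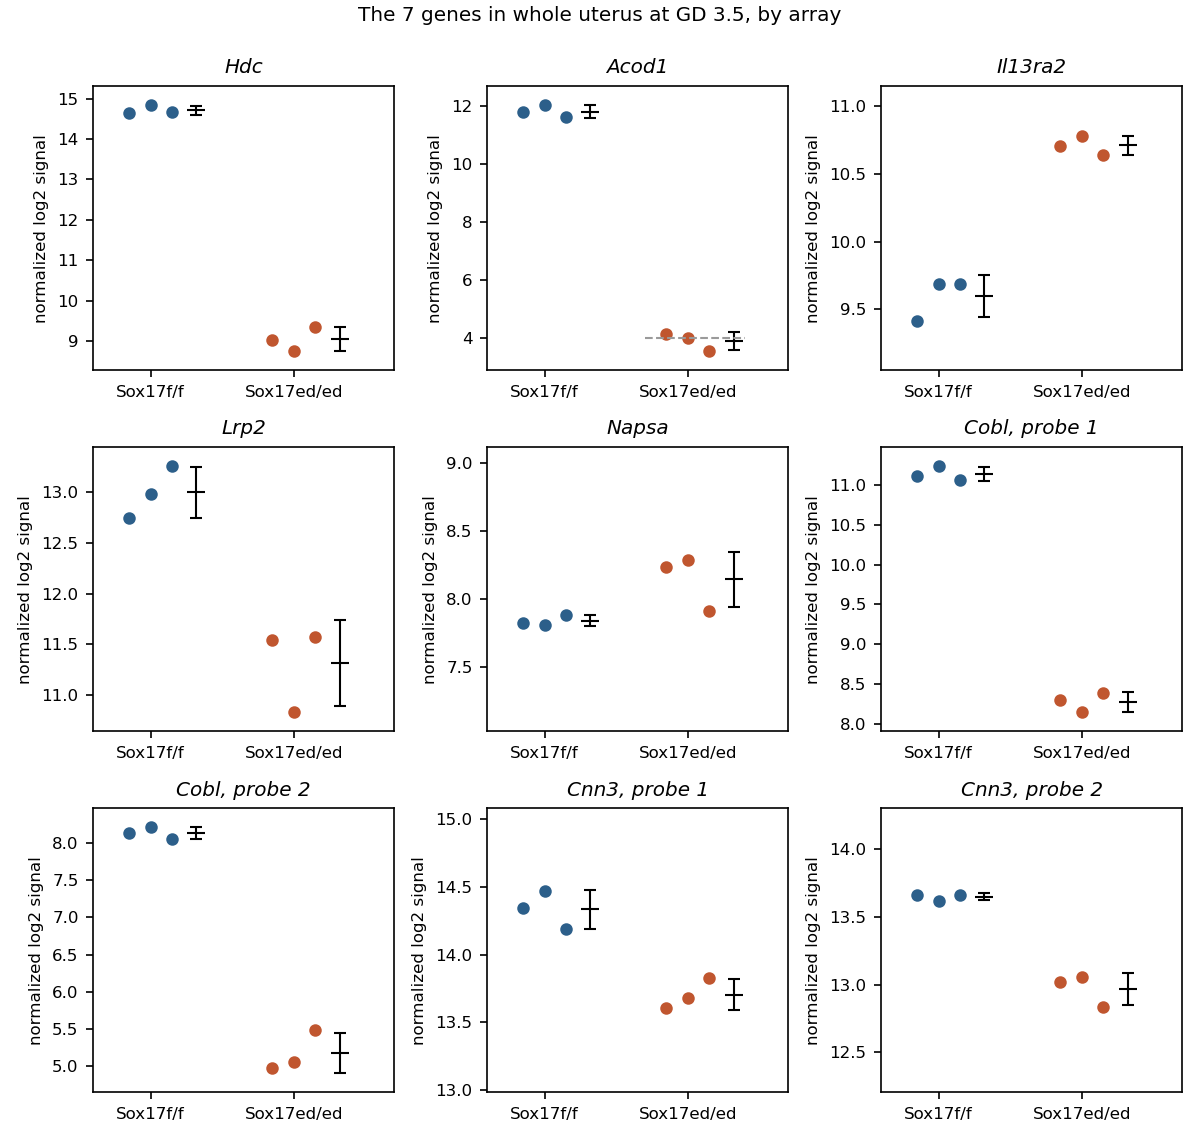
Normalized log2 signal of the 9 probes of the 7 genes on each array, 1 panel for each probe with its own axis. Points are single mice, bars are the mean and SD of 3 arrays, and the dashed line for *Acod1* is the mean, over the Sox17ed/ed arrays, of the lowest signal well above background; the genotypes lie apart in each panel, *Il13ra2* and *Napsa* higher and the others lower in Sox17ed/ed uteri.

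The sequences around the start sites were examined for short motifs, since the choice of the genes did not use them. RefSeq promoters of 300 bases, from 250 bases before to 50 bases after a start site on the build GRCm38.p6, were at hand for 6 of the 7 genes, with 2 for *Cobl*. They are shown for the 3 genes with the largest difference and for *Il13ra2*, which differed in the opposite direction, each read 5′ to 3′ on the strand of the gene. Capitals mark each match, on either strand, to ACAAT (the SOX core), GATAA (the core bound by factors of the GATA family), GTAAACA or its shorter part TAAACA (forkhead motifs), AGAACA (a half-site of the progesterone receptor) or TATAAA (the core of a TATA box).
Acod1, chr14:103046762-103047061, plus strand: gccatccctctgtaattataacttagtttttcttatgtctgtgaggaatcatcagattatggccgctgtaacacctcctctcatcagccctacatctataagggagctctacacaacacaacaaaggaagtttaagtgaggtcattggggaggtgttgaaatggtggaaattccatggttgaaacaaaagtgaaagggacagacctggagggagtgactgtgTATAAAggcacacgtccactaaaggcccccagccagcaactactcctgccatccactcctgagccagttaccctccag
Hdc, chr2:126618629-126618928, minus strand: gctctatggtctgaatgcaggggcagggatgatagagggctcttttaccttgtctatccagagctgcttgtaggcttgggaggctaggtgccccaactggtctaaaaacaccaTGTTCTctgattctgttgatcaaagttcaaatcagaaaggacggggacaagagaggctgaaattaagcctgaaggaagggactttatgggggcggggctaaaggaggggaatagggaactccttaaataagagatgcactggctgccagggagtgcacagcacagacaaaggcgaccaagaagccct
Cobl, start site at chr11:12412091-12412390, minus strand: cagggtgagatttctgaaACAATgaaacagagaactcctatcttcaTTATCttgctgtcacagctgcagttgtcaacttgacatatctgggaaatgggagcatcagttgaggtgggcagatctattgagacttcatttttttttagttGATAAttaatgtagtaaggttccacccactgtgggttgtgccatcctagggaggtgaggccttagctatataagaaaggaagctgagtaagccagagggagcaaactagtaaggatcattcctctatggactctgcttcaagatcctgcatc
Il13ra2, chrX:147429143-147429442, minus strand: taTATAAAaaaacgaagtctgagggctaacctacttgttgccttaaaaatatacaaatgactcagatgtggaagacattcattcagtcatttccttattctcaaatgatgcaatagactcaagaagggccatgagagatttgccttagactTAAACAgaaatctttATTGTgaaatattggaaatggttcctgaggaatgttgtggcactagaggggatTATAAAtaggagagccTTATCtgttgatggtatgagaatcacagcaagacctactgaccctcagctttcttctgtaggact

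The promoters shared no motif of this set. Binding was not tested here, and a promoter without a motif can belong to a gene that is bound elsewhere. From sequencing of bound DNA, the study names *Acod1*, *Cobl*, *Lrp2* and *Cnn3* as examples of its SOX17 targets. At these genes it reports sites that FOXA2, GATA2 and the progesterone receptor bind too. The study lists further genes with a SOX17 site. Absence of *Hdc*, *Il13ra2* and *Napsa* from the examples thus does not say that they are unbound. The DNA bound by SOX17 came from ovariectomized mice given progesterone, whereas the arrays came from pregnant mice. The study's search for sites reached well beyond the promoters read here. The SOX core was found in 2 of the 7 promoters, once each in that of *Il13ra2* (position -84 from the start site) and in the *Cobl* promoter shown (position -232), and in 31.0% of all 32851 promoters of this length. GATAA was found in the same 2 promoters and in 25.4% of all promoters, and the short forkhead motif in *Il13ra2* alone and in 13.4% of all. The longer forkhead motif was in 0 of the 7 and in 3.65% of all promoters. The progesterone receptor half-site was found in *Hdc* alone, at position -137, and in 19.0% of all. TATAAA lay at position -28 in *Acod1* and at positions -31 and -248 in *Il13ra2*, and was found in 13.6% of all promoters. The promoters of *Lrp2* and *Cnn3* and the further *Cobl* promoter held none of these letters, and differed from the 4 shown in base composition. Their share of G and C was 65.0%, 78.3% and 75.3%, against 37.7% to 50.7% in the 4 shown and a median of 52.7% over all promoters. They held 20, 33 and 42 CpG pairs, whereas the 4 shown held 2 in *Acod1*, 3 in *Hdc*, 0 in *Cobl* and 1 in *Il13ra2*.

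*Hdc* was among the 13 genes with the lowest fitted differences of all 14847. Its log2 signal was 14.64, 14.84 and 14.67 on the Sox17f/f arrays and 9.02, 8.75 and 9.35 on the Sox17ed/ed arrays. The means were 14.72 ± 0.11 and 9.04 ± 0.30 (SD, n = 3 in each group), a difference of -5.68 or 51.1-fold. All 6 arrays were well above background, so that *Hdc* transcript was still measured in Sox17ed/ed uteri. The gap between the lowest control and the highest Sox17ed/ed array was 5.29, far wider than the range of 0.59 within the Sox17ed/ed group.

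Histamine made by histidine decarboxylase acts through receptors on neighbouring cells and is removed by methylation or oxidation. Of 11 genes of histamine handling, 8 were tested, of which 3 rose, 0 fell and 5 did not pass, with a median log2 difference of 0.13 beside -0.00162 over all genes. *Aoc1*, which encodes the diamine oxidase that degrades histamine outside cells, rose from 5.68, 5.46 and 5.64 to 7.69, 7.52 and 7.80, a difference of 2.07 ± 0.10 (SE, limma, adjusted p = 7.96e-05). The oxidase thus moved against *Hdc*, and its arrays did not overlap, although normexp background correction lowered its difference to 1.31. *Hrh1*, which encodes the H1 histamine receptor, was close to background (well above it on 2 of 3 Sox17f/f and 3 of 3 Sox17ed/ed arrays) and rose by 1.06 ± 0.19 (limma, adjusted p = 0.0135), a call that was lost with a 75th percentile shift (1.01) and with normexp background correction (0.36). *Slc29a4*, which encodes a membrane transporter of monoamines, rose by 0.57 ± 0.14 (limma, adjusted p = 0.0367), a call also lost with normexp (0.32), with the replicate block (0.57), and without Sox17f/f replicate 2 (0.54) or 3 (0.50) or Sox17ed/ed replicate 2 (0.45) or 3 (0.58). *Hnmt*, which encodes the methyltransferase that inactivates histamine inside cells, differed by -0.16 ± 0.10, and *Slc18a2*, which encodes the vesicular monoamine transporter, by -0.03 ± 0.20, neither past the thresholds. *Slc22a3*, a further transporter gene, was well above background on 0 of 6 arrays, and *Hrh2* had no matched probe.

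Mast cells and basophils also make histamine, and their markers were read beside *Hdc*. Of 12 such markers, 8 were tested, of which 3 fell, 0 rose and 5 did not pass, with a median of -0.47 (-0.41 with *Fcer1a* at its bound). *Kit*, the stem cell factor receptor gene, fell by 1.86 ± 0.12 (limma, adjusted p = 0.000237). *Hpgds*, which encodes a prostaglandin D synthase, fell by 0.92 ± 0.16 (limma, adjusted p = 0.0129), a call lost with normexp (-0.46). *Fcer1a*, a chain of the IgE receptor, was not well above background in Sox17ed/ed uteri and at least 1.32-fold lower there (limma, adjusted p = 0.0169), a call lost with normexp (-0.14), with an eBayes intensity trend (-0.57) and without Sox17f/f replicate 1 (-0.48). The 5 that did not pass, which include the granule protease genes *Cpa3*, *Cma1*, *Mcpt4* and *Tpsb2*, lay between -0.53 and 0.20, and *Mcpt8*, *Ms4a2* and *Mrgprb2* did not pass the filter on low signal and *Tpsab1* had no matched probe. The summed signal of the 8 markers was 5089 to 6238 on the Sox17f/f arrays and 4614 to 5534 on the Sox17ed/ed arrays, but 48.0% to 73.4% of it came from *Gata2*, 1 of the 5 that did not pass, a transcription factor gene that other cells express too. Without *Gata2*, a choice made after its values were seen, the sum was 2336 to 3025 on the Sox17f/f arrays and 1258 to 1635 on the Sox17ed/ed arrays, with no overlap. Without *Kit* as well it was 1218 to 1647 and 964.3 to 1288, and the genotypes overlapped. The part of these cells in the *Hdc* difference was not tested.

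*Acod1* had the largest difference of the 7. Its log2 signal was 11.77, 12.02 and 11.60 on the Sox17f/f arrays and 4.12, 3.99 and 3.53 on the Sox17ed/ed arrays, with means of 11.80 ± 0.21 and 3.88 ± 0.31 (SD, n = 3 in each group). No Sox17ed/ed array was well above background, so the fitted difference of -7.92 is a reading against background. Set against the lowest signal that was well above background on each array, *Acod1* was at least 222-fold lower. The probe was printed as 10 spots. The signal of these spots before normalization ran from 3225 to 3657, from 4289 to 4583 and from 3183 to 3375 on the 3 Sox17f/f arrays, with an SD over spots of 0.06, 0.03 and 0.03 on the log2 scale, several times smaller than the SD of 0.21 between the mice. On the Sox17ed/ed arrays the spots ran from 6.85 to 22.3, and 1 of the 10 on replicate 2, and 0 on the other arrays, was well above background.

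Itaconate leaves the citric acid cycle at cis-aconitate, and the other genes of that cycle differed by at most 0.48. Of 20 genes of the cycle and of itaconate breakdown, all were tested, and by limma 0 passed in either direction and 2 had an unadjusted p under 0.05, with a median difference of 0.07 and a range from -0.09 to 0.48. *Idh2*, which encodes a mitochondrial isocitrate dehydrogenase, had the highest difference of the list, 0.48 ± 0.06 (limma, adjusted p = 0.00368), just under the fold threshold, and passed it without Sox17f/f replicate 3 (0.51) or Sox17ed/ed replicate 1 (0.49) or 2 (0.49).

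*Acod1* is best known from activated macrophages and neutrophils. Of 12 macrophage markers, 11 were tested, of which 3 fell, 0 rose and 8 did not pass, with a median of -0.23. The Fc receptor gene *Fcgr1* fell by 1.19 ± 0.12 (limma, adjusted p = 0.00147), the lipopolysaccharide coreceptor gene *Cd14* by 1.15 ± 0.12 (limma, adjusted p = 0.00163) and the mannose receptor gene *Mrc1* by 0.88 ± 0.08 (limma, adjusted p = 0.000917). Of these, *Cd14* is also listed by the study as a gene of the uterine epithelium. The macrophage markers that did not pass, among them *Csf1r*, *Adgre1* and the complement genes *C1qa*, *C1qb* and *C1qc*, lay between -0.27 and 0.41. Of the 11 tested, 9 had an unadjusted p under 0.05 by limma. The summed signal of the macrophage markers was 27189.7 to 29777 on the Sox17f/f and 27052 to 27568 on the Sox17ed/ed arrays. *Csf1r*, the brightest of these markers, weighs most in this sum and was higher in Sox17ed/ed uteri without passing. Of 10 neutrophil markers 7 were tested, and by limma 0 passed and 0 had an unadjusted p under 0.05. The part of macrophages in the *Acod1* difference was not tested.

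*Il13ra2* was higher in Sox17ed/ed uteri, whereas *Lrp2*, the other receptor gene of the 7, was lower. Its log2 signal was 9.41, 9.68 and 9.68 on the Sox17f/f arrays and 10.71, 10.78 and 10.64 on the Sox17ed/ed arrays. The means were 9.59 ± 0.16 and 10.71 ± 0.07 (SD, n = 3 in each group), a difference of 1.12 or 2.17-fold. The lowest Sox17ed/ed array lay 0.96 above the highest control, and the difference ranked 401 from the highest among the 14847 genes.

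The decoy receptor binds IL13 in competition with a signalling receptor made of IL13RA1 and IL4RA, which acts through STAT6. Of 11 genes of this signalling path 10 were tested, and by limma 0 passed in either direction and 3 had an unadjusted p under 0.05, with a median of -0.12. *Il13ra1* differed by -0.33 ± 0.19, *Il4ra* by -0.23 ± 0.08 and *Stat6* by 0.03 ± 0.06. *Il13ra1* passed as lower without Sox17ed/ed replicate 2 (-0.56), the array on which it was highest. *Irs2*, an adaptor gene with the lowest difference of the list, -0.79 ± 0.26, passed without that array too (-1.07), with an intensity trend (-0.79) and with normexp (-0.78). *Il13* did not pass the filter on low signal. The signalling receptor genes thus did not pass, whereas the decoy receptor gene differed by more than 1 log2 unit.

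Target genes known from other tissues moved in both directions. Of 10 target genes of IL4 and IL13, 8 were tested, of which 2 rose, 1 fell and 5 did not pass, with a median of 0.37. *Clca1*, a secreted protein gene of mucous epithelia, was 3.92, 2.41 and 3.79 on the Sox17f/f arrays, of which 1 was well above background, and 14.35, 13.96 and 14.62 on the Sox17ed/ed arrays (limma, adjusted p = 3.42e-05). The study names *Clca1*, by its former symbol *Clca3*, among estrogen-responsive genes changed in these samples. The chemokine gene *Ccl17* rose by 1.23 ± 0.14 (limma, adjusted p = 0.00229), and by 0.50 with normexp. *Alox15*, which encodes a lipoxygenase, was 10.47, 11.43 and 9.61 on the Sox17f/f arrays and 8.54, 8.55 and 8.62 on the Sox17ed/ed arrays, a difference of -1.93 ± 0.42 (limma, adjusted p = 0.0261). The *Alox15* call was lost without Sox17f/f replicate 1 (-1.95) or Sox17ed/ed replicate 1 (-1.92), 2 (-1.92) or 3 (-1.96).

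*Lrp2* had the widest spread between mice of the 7. Its log2 signal was 12.74, 12.98 and 13.25 on the Sox17f/f arrays and 11.55, 10.83 and 11.57 on the Sox17ed/ed arrays. The means were 12.99 ± 0.25 and 11.32 ± 0.42 (SD, n = 3 in each group), beside median SDs of 0.11 and 0.11 over all genes, and the difference was -1.68 or 3.20-fold. Sox17ed/ed replicate 2 was the lowest, and without it the difference was -1.44.

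Megalin works with the coreceptor cubilin, needs the chaperone encoded by *Lrpap1* to reach the cell surface, and is drawn into the cell by the adaptor encoded by *Dab2*. Of 16 genes of this endocytic route 13 were tested, of which 3 fell, 0 rose and 10 did not pass, with a median of 0.05. *Cubn*, which encodes cubilin, fell from 6.24, 6.43 and 6.44 to 5.23, 5.07 and 5.16, a difference of -1.22 ± 0.08 (limma, adjusted p = 0.000299). *Clcn5*, which encodes a chloride and proton exchanger of endosomes, fell from 9.79, 9.46 and 9.33 to 7.84, 8.03 and 7.36, a difference of -1.78 ± 0.20 (limma, adjusted p = 0.00221). Coreceptor and exchanger thus fell with their arrays apart, although the *Cubn* difference was -0.60 with normexp. *Lrpap1* fell by 0.56 ± 0.08 (limma, adjusted p = 0.00636), a call lost with normexp (-0.45). *Dab2* differed by -0.45 ± 0.11, under the fold threshold, and passed without Sox17ed/ed replicate 2 (-0.55). *Amn*, which encodes the membrane anchor of cubilin, was well above background on 1 of 6 arrays and was not tested.

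The proteins that megalin can take up did not share a direction. Of 16 ligand genes 12 were tested, of which 5 fell, 2 rose and 5 did not pass, with a median of 0.09. *Ttr*, which encodes the carrier of thyroid hormone and retinol-binding protein, was well above background on 3 of 3 Sox17f/f and 0 of 3 Sox17ed/ed arrays and at least 45.8-fold lower (limma, adjusted p = 2.19e-05). The hedgehog ligand gene *Ihh* fell by 3.01 ± 0.14, the metallothionein genes *Mt2* and *Mt1* by 1.75 ± 0.09 and 1.49 ± 0.08, and *Rbp4*, which encodes the retinol carrier, by 0.84 ± 0.11. Each of these 4 had an adjusted p of at most 0.00349 by limma. *Lcn2*, which encodes the iron-binding lipocalin 2, rose from 9.03, 9.66 and 8.17 to 12.76, 12.58 and 12.80, a difference of 3.76 ± 0.35 (limma, adjusted p = 0.00103). *Clu*, the clusterin gene, rose by 2.11 ± 0.09 (limma, adjusted p = 4.03e-05).

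*Napsa* differed least of the 7. Its log2 signal was 7.82, 7.81 and 7.88 on the Sox17f/f arrays and 8.23, 8.29 and 7.91 on the Sox17ed/ed arrays. The means were 7.84 ± 0.04 and 8.14 ± 0.20 (SD, n = 3 in each group), a difference of 0.31 or 1.24-fold. The genotypes were separated by a gap of 0.03 alone, since Sox17ed/ed replicate 3 lay next to the controls.

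The other proteases of its class that passed the thresholds, *Ctsd* and *Pga5*, were lower. Of 7 further aspartic protease genes 5 were tested, of which 2 fell, 0 rose and 3 did not pass, with a median of -0.46. *Ctsd*, which encodes the lysosomal protease cathepsin D, fell from 16.43, 16.66 and 16.64 to 14.91, 14.88 and 15.04, a difference of -1.63 ± 0.09 (limma, adjusted p = 0.000131). *Pga5*, a pepsinogen gene, fell from 8.94, 8.09 and 8.47 to 6.19, 5.38 and 5.96, a difference of -2.66 ± 0.28 (limma, adjusted p = 0.00171). Neither gene had arrays that overlapped between the genotypes, and the *Pga5* difference was -1.70 with normexp. The 3 that did not pass lay on both sides of 0, between -0.46 and 0.26. *Ctse*, which encodes cathepsin E, was well above background on 0 of 6 arrays. Of 11 other cathepsin genes, all tested, 2 fell and 2 rose. *Ctsb* and *Ctsc* fell by 0.67 ± 0.09 and 0.53 ± 0.07, *Ctsh* and *Ctso* rose by 0.79 ± 0.08 and 0.80 ± 0.20, each with an adjusted p of at most 0.0372 by limma. The *Ctsc* call was lost without Sox17ed/ed replicate 1 (-0.48). The *Ctso* call was lost with no filter on low signal (0.80), without Sox17f/f replicate 1 (0.66) or 2 (0.84), and without Sox17ed/ed replicate 1 (0.76) or 3 (0.67).

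*Cobl* was lower by both of its probes. The brighter gave a log2 signal of 11.12, 11.24 and 11.07 on the Sox17f/f arrays and 8.29, 8.14 and 8.38 on the Sox17ed/ed arrays, with means of 11.14 ± 0.09 and 8.27 ± 0.12 (SD, n = 3 in each group) and a difference of -2.87 or 7.30-fold. The other gave 8.14, 8.22 and 8.06 against 4.98, 5.06 and 5.48, a difference of -2.96 or 7.80-fold. Both probes were well above background on all arrays, and neither tells the start sites apart as far as the files say.

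Of 19 other genes of actin nucleators and partners of cordon-bleu, all tested, 1 fell, 1 rose and 17 did not pass, with a median of 0.07. *Pacsin3*, of the family of F-BAR proteins that bind cordon-bleu, fell by 0.72 ± 0.09 (limma, adjusted p = 0.00371), whereas *Pacsin2* differed by 0.23 ± 0.11 and *Cobll1*, the paralog of *Cobl*, by -0.40 ± 0.08, neither past the thresholds. *Spire2*, which encodes a nucleator with similar actin-binding repeats, was well above background on the 3 Sox17ed/ed arrays alone and at least 2.62-fold higher there (limma, adjusted p = 0.000643). Of 17 genes of microvilli and the brush border 14 were tested, of which 2 fell, 2 rose and 10 did not pass, with a median of -0.12. *Eps8*, which encodes an actin-capping protein, fell by 0.77 ± 0.08, whereas *Vil1*, the villin gene, and *Slc9a3r1*, which encodes a scaffold protein that binds ezrin, rose by 0.78 ± 0.13 and 0.87 ± 0.12, each with an adjusted p of at most 0.00941 by limma. The *Vil1* call was lost with normexp (0.45). *Prom1*, which marks membrane protrusions, fell by 0.57 ± 0.15 (limma, adjusted p = 0.0435), a call lost with normexp (-0.47), with no filter on low signal (-0.57), and without Sox17f/f replicate 1 (-0.44), 2 (-0.63) or 3 (-0.64) or Sox17ed/ed replicate 2 (-0.48) or 3 (-0.56).

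*Cnn3* was lower by both of its probes, the smallest drop of the 5 genes. The brighter gave a log2 signal of 14.34, 14.47 and 14.19 on the Sox17f/f arrays and 13.61, 13.68 and 13.83 on the Sox17ed/ed arrays, with means of 14.34 ± 0.14 and 13.70 ± 0.11 (SD, n = 3 in each group) and a difference of -0.63 or 1.55-fold. The other gave 13.66, 13.62 and 13.67 against 13.02, 13.05 and 12.84, a difference of -0.68 or 1.60-fold. The mice were ordered differently by the 2 probes within each genotype.

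Of the 5 other genes of the calponin and transgelin family, all tested, 1 fell, 0 rose and 4 did not pass, with a median of -0.33. *Cnn2*, the calponin gene of many non-muscle cells, fell by 0.56 ± 0.07 (limma, adjusted p = 0.00331), a call lost with the mean of its probes (-0.45). *Cnn1*, the calponin gene of smooth muscle, differed by -0.48 ± 0.11, just under the fold threshold, and passed with a 75th percentile shift (-0.50), with normexp (-0.51), without Sox17f/f replicate 3 (-0.56) and without Sox17ed/ed replicate 2 (-0.51) or 3 (-0.53). Of 8 smooth muscle markers, *Cnn1* among them, 1 fell, the actin gene *Actg2* by 0.64 ± 0.10 (limma, adjusted p = 0.00794), with a median of -0.28. The part of smooth muscle in the *Cnn3* difference was not tested.

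**Figure D2:**
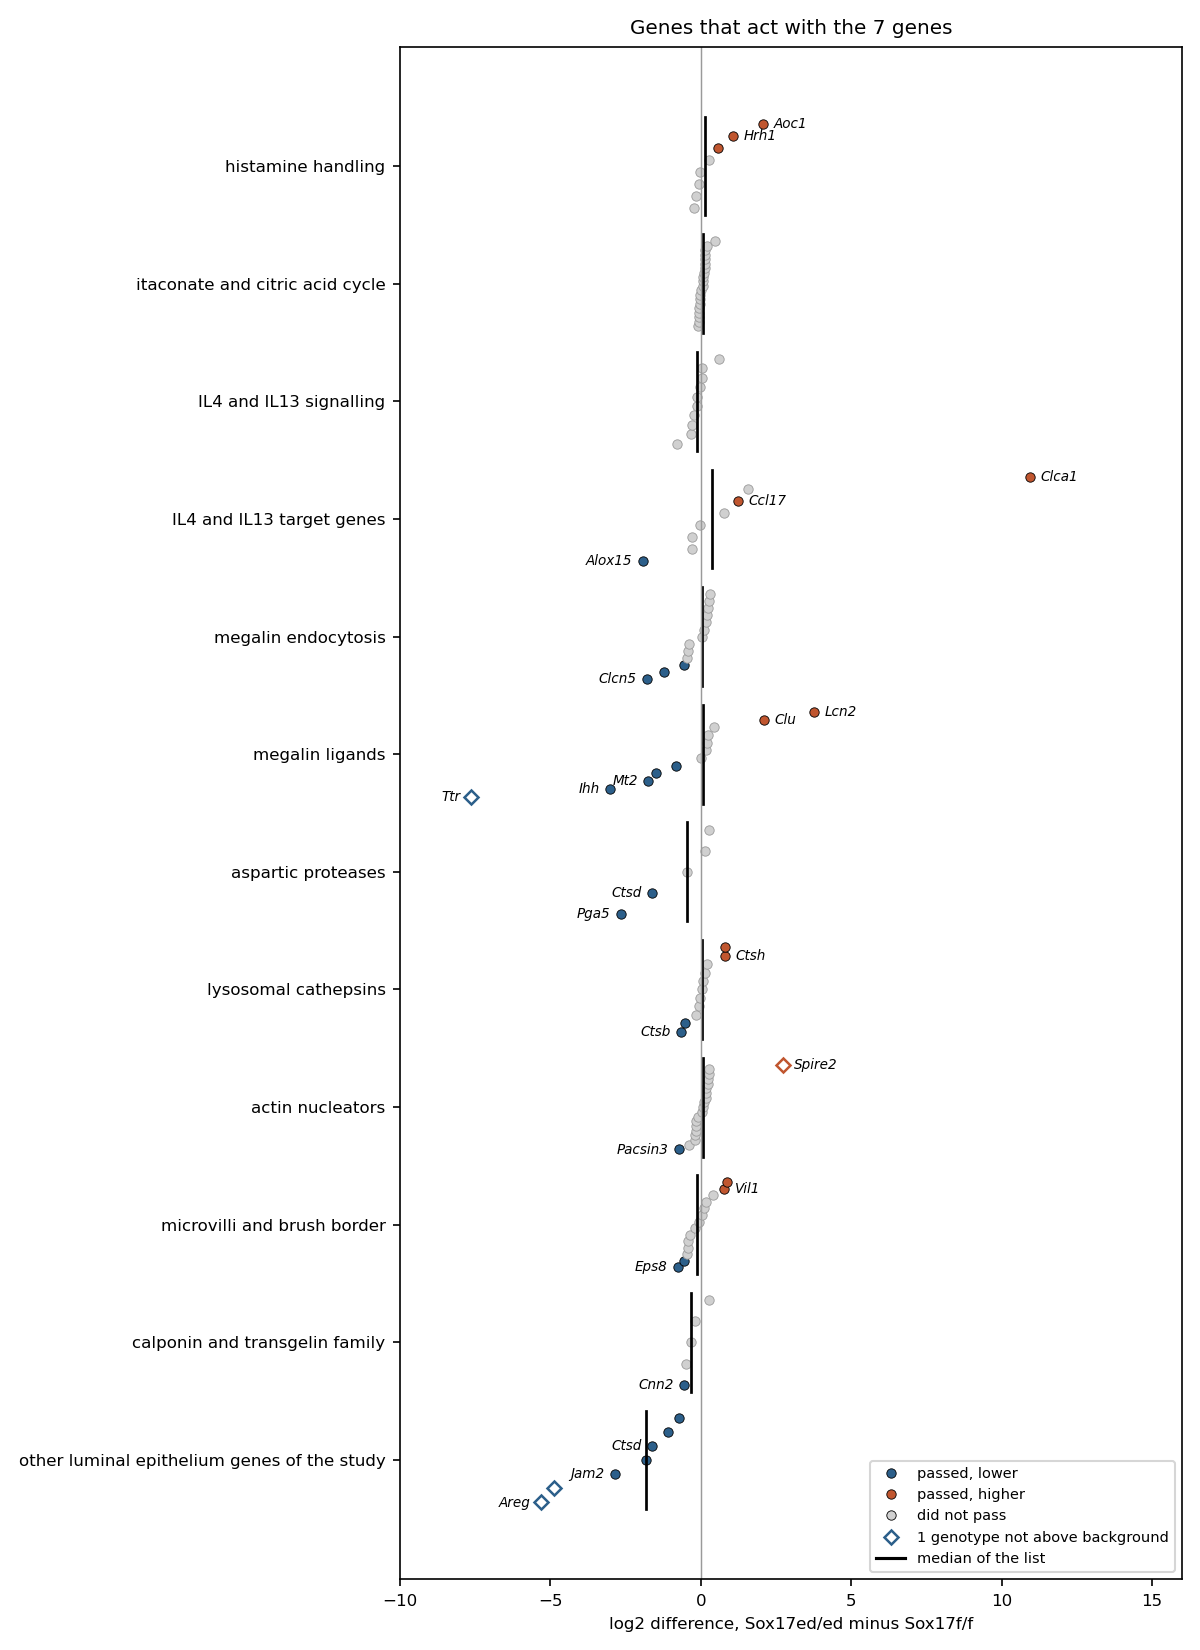
Log2 difference, Sox17ed/ed minus Sox17f/f, of the genes that act with the 7 genes, 1 point for each tested gene and 1 row for each list. Blue and orange points passed the thresholds as lower and higher, gray points did not, open diamonds were not well above background in 1 genotype and are shown at their fitted value, and black lines are medians; the citric acid cycle genes lie between -0.09 and 0.48 while the histamine, megalin ligand and protease lists hold points far from 0.

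Counted together and each taken as 1 gene, 131 related genes were tested, of which 23 fell and 12 rose, 26.7% in all beside 12.5% of all genes tested, with a median of -0.02. The study had named *Ihh*, *Mt1*, *Mt2* and *Clca1* (as *Clca3*) as changed in these samples, so the share of 26.7% is no independent result. The lists also include 7 further luminal epithelium genes that the study named from these samples, which are no independent evidence of direction or share. All 7 of those fell, from *Cldn7*, a tight junction gene, at -0.71 ± 0.12 to *Areg*, which encodes the growth factor amphiregulin and was at least 13.0-fold lower. Of the 7 genes described here, those that the study lists as luminal epithelial, *Hdc*, *Acod1*, *Cobl* and *Cnn3*, were lower too. The 2 that were higher, *Il13ra2* and *Napsa*, are in neither of its lists of epithelial genes. Those lists hold only genes that the study found changed in these samples, in part as examples. Absence from them thus does not say where a gene is expressed, and no link with direction is read from them.

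Whether the labelled tissue was present on all arrays was read from epithelial markers. All 16 were tested, of which 6 rose, 2 fell and 8 did not pass, with a median of 0.16, and their summed signal was 52867.5 to 55236.5 on the Sox17f/f and 56776 to 69532 on the Sox17ed/ed arrays. The claudin gene *Cldn3* fell most, by 1.16 ± 0.08 (limma, adjusted p = 0.000293). *Epcam* and *Krt18* did not pass. *Krt18*, the brightest of the 16 on each array, weighs most in the sum, which therefore says little of the dimmer markers. Of 7 markers of the luminal epithelium 2 fell, 2 rose and 3 did not pass. *Lpar3*, which encodes a receptor for lysophosphatidic acid needed for implantation, fell by 4.05 ± 0.12 (limma, adjusted p = 1.54e-05), with a difference of -2.93 with normexp. Of 7 markers of the glandular epithelium 6 fell and 1 rose, from *Prss29*, a uterine serine protease gene that was at least 483-fold lower, to *Aldh1a1*, which encodes a retinal dehydrogenase and was higher by 3.97 ± 0.13. Several of the glandular markers, *Prss29* among them, were named by the study as changed in these samples. Their count and direction are therefore no independent result. Glandular markers thus fell along with *Hdc*, *Acod1* and *Cobl*, and their part in those differences was not tested. By limma 0 of 10 stromal markers passed, with 5 at an unadjusted p under 0.05, and of 8 endothelial markers 1 fell, *Vwf* by 0.84 ± 0.16 (adjusted p = 0.0172).

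**Figure D3:**
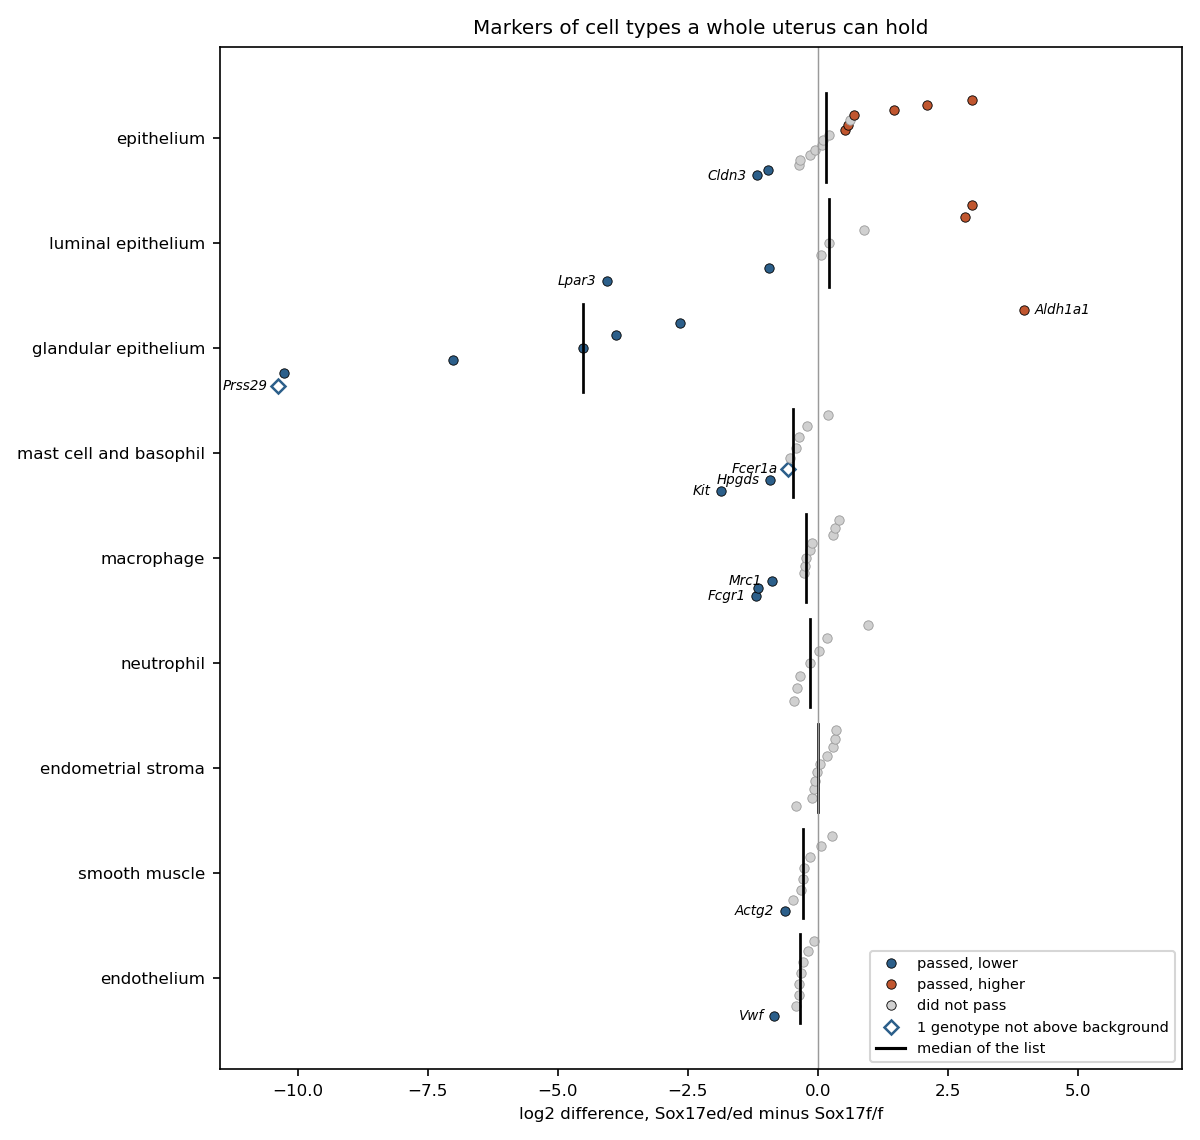
Log2 difference, Sox17ed/ed minus Sox17f/f, of cell type markers, 1 point for each tested gene. Blue and orange points passed the thresholds as lower and higher, gray points did not, open diamonds were not well above background in 1 genotype, and black lines are medians; glandular markers reach far below 0, while the epithelial markers lie on both sides and those of the stroma between -0.42 and 0.34.

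Genes next to 6 of the 7 on the chromosome, those other than *Acod1*, gave a comparison that the choice of the genes did not use. Of the 24 protein-coding genes that are the 2 nearest on each side, 19 were tested, of which 4 rose, 1 fell and 14 did not pass (26.3% past the thresholds, beside 12.5% of all genes tested), with a median of 0.07. *Slc44a3*, a choline transporter-like gene beside *Cnn3*, fell by 0.84 ± 0.17 (limma, adjusted p = 0.0200).

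The neighbours that rose lay beside genes of either direction. Beside *Hdc*, *Slc27a2*, which encodes a fatty acid transport protein, rose by 2.17 ± 0.22 (limma, adjusted p = 0.00151). *Amot*, the angiomotin gene near *Il13ra2*, rose by 0.67 ± 0.11 and *Vstm2a* near *Cobl* by 0.99 ± 0.15, each with an adjusted p of at most 0.0101 by limma. *Dhrs9*, which encodes a retinol dehydrogenase and lies beside *Lrp2*, was well above background on 1 of 3 Sox17f/f arrays and rose by 3.45 ± 0.77 (limma, adjusted p = 0.0278), a call lost without Sox17f/f replicate 2 (3.38) or Sox17ed/ed replicate 1 (3.21), 2 (3.56) or 3 (3.59). The size of this difference was uncertain, since it was 1.19 with normexp, 4.29 without Sox17f/f replicate 1 and 2.69 without Sox17f/f replicate 3. The 4 neighbours of *Napsa* did not pass. Of the 14 that did not pass, *Abcb11*, near *Lrp2*, was not well above background on any Sox17ed/ed array, and the other 13 lay between -0.14 and 0.96.

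**Figure D4:**
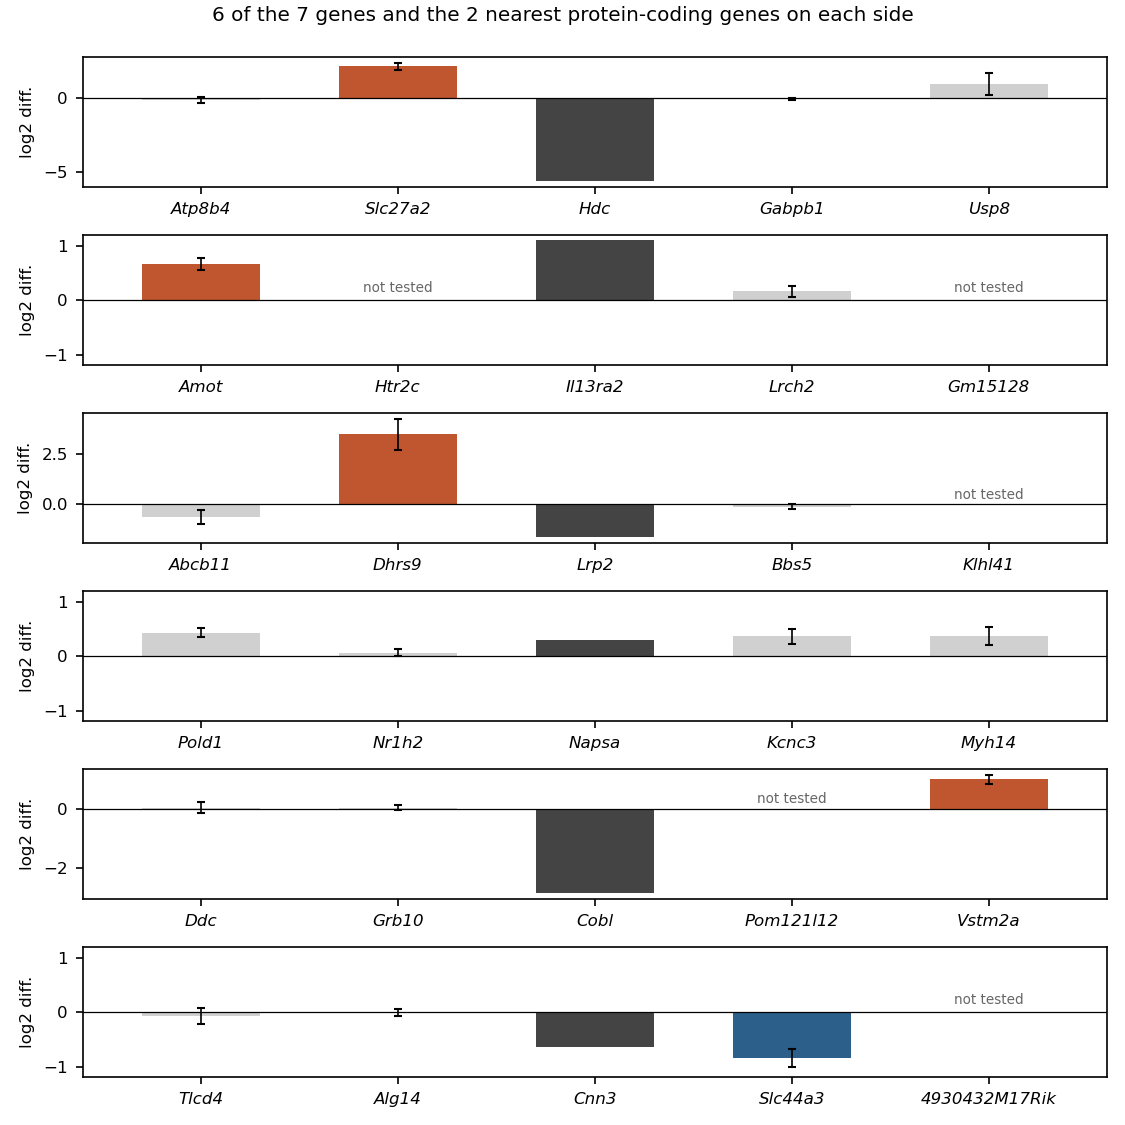
Log2 difference, Sox17ed/ed minus Sox17f/f, of 6 of the 7 genes (dark bars) and of the 2 nearest protein-coding genes on each side in chromosome order, without distances. Error bars are the SE from limma, blue and orange bars passed the thresholds and gray bars did not; *Slc44a3* at -0.84 is the only neighbour plotted that fell, and *Abcb11*, not well above background in Sox17ed/ed uteri, is shown at its fitted value.

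For each of the 7, the most similar profiles among all other genes were found by the Euclidean distance over the 6 arrays between log2 values taken relative to the Sox17f/f mean. This likeness includes the difference on which the genes were chosen and carries no test. *Cobl* was nearest to *Ihh* (distance 0.31) and to *Jam2*, a junction protein gene (0.40), which differed by -3.01 and -2.87. Nearest to *Cnn3* were *Nudt4* (0.10), which encodes a diphosphoinositol phosphatase, and the cathepsin gene *Ctsb* (0.12). *Il13ra2* was nearest to *Psat1* (0.21), an enzyme gene of serine synthesis, and to *Dennd2d* (0.22). *Lrp2* was nearest to the claudin gene *Cldn23* (0.53) and to *Spsb4* (0.56), and *Napsa* to *Slco3a1* (0.10) and *Tbc1d10c* (0.10). The genes nearest to *Hdc* were *Cpsf4l* and *Tmprss11g*, neither of which was well above background in Sox17ed/ed uteri, where they were at least 10.1-fold and 33.7-fold lower. Those nearest to *Acod1* were *Pla2g10*, which encodes a secreted phospholipase, and *Ttr*, well above background on 2 and 0 of 3 Sox17ed/ed arrays. Distances to *Hdc* and *Acod1* are not given, since they rest on signals near background. Among the 7 themselves the closest pair was *Il13ra2* and *Napsa* (1.43).

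The direction of each of the 7 differences was kept in all settings and with any array left out in which the gene was measured. *Hdc* stayed between -5.83 and -5.53, *Cobl* between -2.92 and -2.68, *Lrp2* between -1.81 and -1.44 and *Cnn3* between -0.70 and -0.56. *Il13ra2* stayed between 1.01 and 1.16 and *Napsa* between 0.23 and 0.42. *Acod1* lay between -8.04 and -7.74 except with normexp, where it was -5.44.

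**Figure D5:**
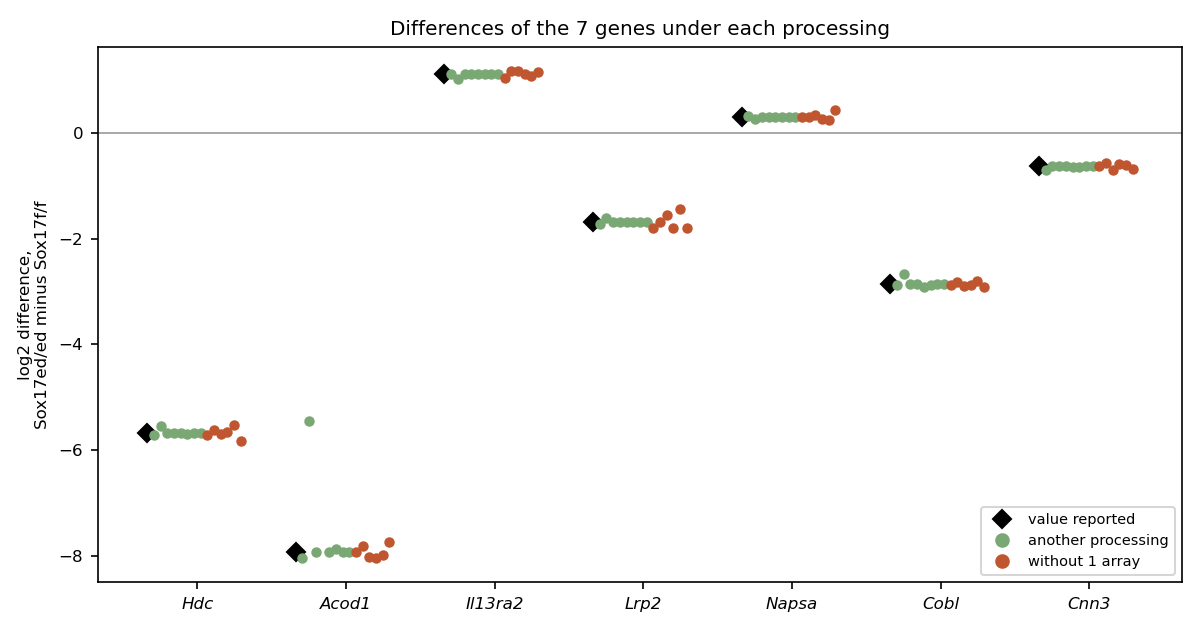
Log2 difference, Sox17ed/ed minus Sox17f/f, of each of the 7 genes as reported (diamond), with another processing (green) and without 1 array (orange). No point crosses 0, and the point of *Acod1* at -5.44 is the normexp background correction.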

How the data were processed

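RNA of 6 whole uteri, 3 for each genotype as given by the labels, was read on single-colour Agilent arrays. The authors deposited scanner output whose spot intensity, the processed signal, had been background-subtracted and detrended by Feature Extraction within each array. The file headers name version 11.0.1.1, whereas the submitters' processing notes name Agilent Feature Extraction 9.1. The deposited value table holds the same processed intensity, averaged over spots and without normalization between arrays. Differences near background are uncertain on the log2 scale.

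Control spots and spots marked as outliers (169 to 302 of 62976 per array) were left out. Signals were log2 transformed and quantile normalized, and the spots of each probe averaged. A probe was kept if 3 or more of the 6 arrays called it well above background, by at least as many spots as not, and the brightest probe stood for a gene. Probes were matched by RefSeq accession to gene symbols of GRCm38.p6 (26582 of 55681), whereas the array was designed on mm9. An array value was missing for 85 of the 14847 genes. Genotypes were compared with limma 3.58.1 (lmFit, eBayes) in R 4.3.3. P-values were adjusted over all genes by Benjamini-Hochberg. The methods of the study give quantile normalization and the thresholds. Nothing says more of how the mice relate, so p-values measure the spread between these samples. Where 0 arrays of a genotype called a gene well above background, it is given as a bound, the mean of the brighter group against the mean, per array, of the higher of its own signal and the lowest signal well above background. Python 3.11.15, pandas 2.3.3, numpy 2.4.6 and matplotlib 3.10.9 were used for counts and plots, and the fit was tested on simulated data.

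The 7 genes and the lists were chosen with earlier results of these data known. The genes named are the 7, their direct partners, the highest and lowest of each list, the neighbouring genes of 6 of them and the 2 most similar profiles of each, with those not past the thresholds partly given as counts. *Slc29a4*, *Ccl17*, *Mt1*, *Mt2*, *Rbp4*, *Clu*, *Ctsc*, *Ctsh*, *Prom1*, *Hpgds*, *Fcer1a*, *Cd14*, *Mrc1* and the markers named without a value were added after their values were seen. Some genes that this rule names are not reported here. Alternatives were a 75th percentile shift, normexp with an offset of 50, other filters on low signal, the mean of the probes, the deposited value table, an intensity trend, a replicate block, and leaving out each array.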

Additional observations from a re-analysis of the deposited data

How the results depend on the processing

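The number of genes past the thresholds was 1857 as reported, 1532 to 1885 with other processing and 1665 to 2034 without 1 array. The median difference of the 7 genes was -1.15 when all 6 arrays had to be well above background, which drops *Acod1*, -1.73 to -1.61 with the other settings, and -1.81 to -1.44 without 1 array. Related genes past the thresholds numbered 29 to 36 with other processing and 33 to 38 without 1 array, beside 35 reported, and neighbouring genes 4 to 6 beside 5. *Sox17* lay between -2.71 and -2.39. Of 70 other named genes 57 passed, of which 45 kept their call in every setting run in which they were tested; the other 12 and the 5 that passed in an alternative alone are given with the results. Directions turned for *Slc18a2* (0.0359) and *Stat6* (-0.0420) with the mean of the probes. Without 1 array *Slc18a2* lay between -0.209 and 0.138. The planned normexp on the mean signal was not run, since the mean signal is not among the columns used here; the median signal was used instead, chosen after seeing the data. With the replicate number as a block 1796 genes passed, 34 related genes and 5 neighbours among them, the median of the 7 genes was -1.68 and *Sox17* -2.45, and of the other named genes the call of *Slc29a4* alone changed. Mice of the same number deviated together no more than others (correlation across genes 0.06, -0.11 and 0.00, against -0.08 to 0.08 for different numbers). With 3 arrays in each group such values cannot exclude a pairing, and the main comparison used none. Signals near background limit *Acod1*, *Hrh1*, *Fcer1a*, *Spire2*, *Dhrs9*, *Clca1*, *Ttr*, *Areg*, *Prss29*, *Abcb11*, *Cpsf4l*, *Tmprss11g* and *Pla2g10*, each not well above background on 1 or more arrays. Normexp moved the fold of 16 of the 57 named genes that passed by over 1.5 times, among them *Clca1* (10.94 to 8.14 on the log2 scale), *Ttr* (-7.63 to -3.67), *Spire2* (2.74 to 0.56), *Areg* (-5.33 to -2.24), *Prss29* (-10.37 to -6.86), *Cpsf4l* (-5.59 to -1.85), *Tmprss11g* (-5.79 to -3.37), *Pla2g10* (-7.54 to -5.76) and *Cldn23* (-1.81 to -1.14), and the other 7 are given with the results. *Prss29* was -9.24 with the mean of its probes and -11.03 without Sox17ed/ed replicate 1, and *Areg* -5.96 without Sox17ed/ed replicate 3.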
